A study of Mus musculus with 6 samples.

Results

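The 10 genes described here are transcripts by which cytotoxic lymphocytes, the killer T cells and natural killer (NK) cells, are usually recognised, read in RNA from sorted tumour macrophages. They were taken by symbol: Cd3e, Cd3g, Cd8a, Klrd1, Ncr1, Gzma, Gzmb, Prf1, Nkg7 and Ifng. All 10 were found among the 24391 genes of the count table and the 23284 genes of the FPKM table (fragments counted per length of transcript and per size of library). The series measured how a lack of the chemokine gene Ccl5 alters gene expression in tumour-associated macrophages (TAMs). Macrophages were sorted from colorectal tumours of BALB/C mice, either WT (CCL5+/+) or CCL5-/-. The CD11bhiF4/80low gate gave 2 WT and 2 CCL5-/- libraries with read counts. The gate labelled CD11blowF4/80hiTAMs gave 1 library labelled WT and 1 labelled CCL5-/-, with FPKM values (the CD11blow libraries). How the tumours arose, the age of the mice, and whether libraries came from separate mice or pools are not given in the sources used here, so a p-value here measures only how far these libraries spread, and part of that may be technical.

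A T cell recognises its target through the T cell receptor, whose signal is carried inwards by the CD3 chains, and CD8 marks the T cells that read peptides on class I molecules. NK cells carry no such receptor and are steered by activating and inhibitory receptors such as NKp46 and CD94. Both kinds of cell kill by releasing granules that hold perforin and granzymes, and both secrete interferon gamma, which switches on antigen presentation and chemokine genes in macrophages. Macrophages are not known for CD3 or NKp46, so in a sorted TAM sample these genes are commonly read as a sign of lymphocytes carried through the sort. In bulk RNA, fewer cells of a type and less RNA per cell cannot be told apart, and cells were not counted here.

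Several facts about the libraries bear on every value that follows. Total counts were between 9280635 and 22411342 per library. The ribosomal RNA precursor Rn45s took 58.4% and 50.03% of counts in the replicate 1 libraries and 0.844% and 1.38% in the replicate 2 libraries (WT and then CCL5-/- in each case), so that all other genes shared 3857011 to 22222208 counts. Levels are therefore given as CPM (counts over a common library size) with TMM factors, and changes are also given within each same-numbered pair. Ccl5 had 255 and 3976 reads in WT and 35 and 82 reads in CCL5-/-, as the F4/80low labels say. The CD11blow libraries do not match their fields in this way, and their titles name the other genotype. The ratio between these 2 libraries also predicted how reads of a gene split between the replicate 1 libraries, with a median chi-square of 0.332 over 6674 genes against 3.58 to 8.93 for the other 11 ordered library pairs. The library labelled CD11blow WT followed F4/80low CCL5-/- replicate 1, and the library labelled CCL5-/- followed WT replicate 1. They were therefore not counted as further replicates.

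The macrophage label was read beside 15 marker genes, and all 15 had reads in each F4/80low library. This is a weak check, since neutrophil markers had reads there too (summed level 3786 CPM in WT replicate 1). The summed level of the macrophage markers was 5956 and 10580 CPM in WT replicates 1 and 2, and 6809 and 6704 CPM in CCL5-/- replicates 1 and 2. The 10 lymphocyte genes summed to 114, 429, 194 and 188 CPM in the same order, so they made up a small share of reads beside the macrophage genes. Both sums were lowest in WT replicate 1 and highest in WT replicate 2. In this sum WT had 271 ± 223 CPM and CCL5-/- 191 ± 4.35 CPM (mean ± SD, n = 2), and both CCL5-/- libraries fell inside the WT range. The small SD of CCL5-/- holds with TMM scaling, and over total counts its libraries were further apart. Gzma and Gzmb together gave between 60.8% and 73.3% of the sum in each library.

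**Figure D1:**
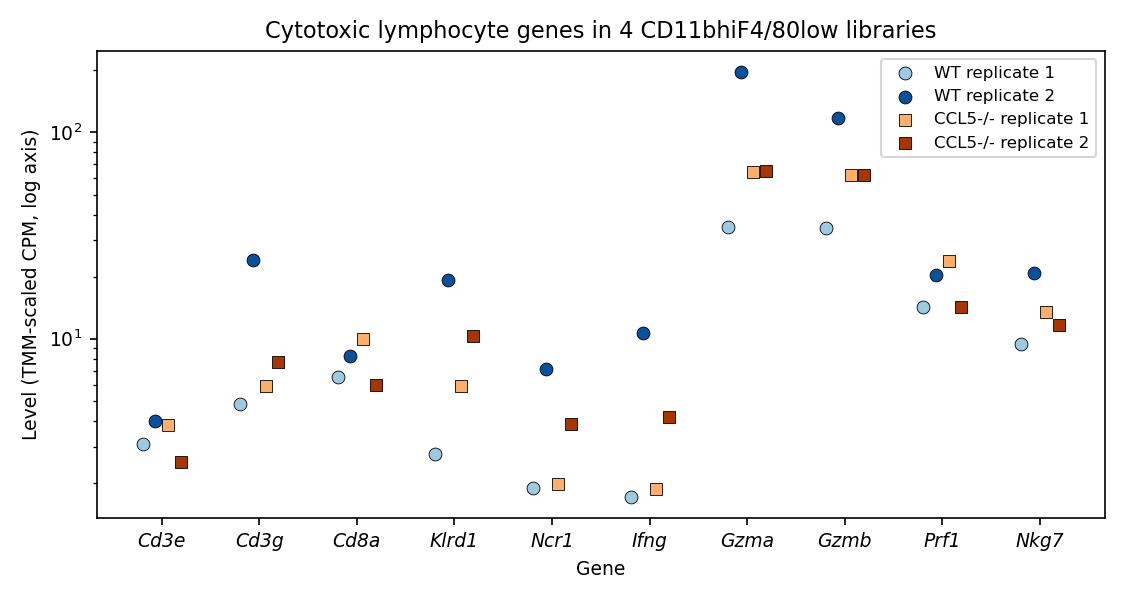
Level of each of the 10 genes (horizontal axis) in TMM-scaled CPM on a log axis, 1 point per F4/80low library, circles for WT and squares for CCL5-/-, pale for replicate 1 and dark for replicate 2. WT replicate 2 had the highest level for 8 of the 10 genes and WT replicate 1 the lowest for 7.

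Among the T cell receptor genes, Cd3e (chromosome 9, 44998740 to 45009627, GRCm38, minus strand), which encodes the epsilon chain of CD3, had 18 and 122 reads in WT replicates 1 and 2 and 33 and 69 in CCL5-/-. These reads gave 3.09 and 4.01 CPM in WT and 3.84 and 2.53 CPM in CCL5-/-. The 4 values lay close together, and the genotypes overlapped. The gene models Gm48719 (antisense) and Gm48720 overlap Cd3e, and Gm49751 overlaps Ifng, so some of these reads could belong to them. Its neighbour Cd3g (chromosome 9, 44969572 to 44980431, minus strand), the gamma chain, had 28 and 734 reads in WT and 51 and 211 in CCL5-/-, or 4.81 and 24.1 CPM against 5.93 and 7.75 CPM. One library, WT replicate 2, stood above the other 3. Cd8a (chromosome 6, 71373427 to 71379173, plus strand), which encodes the alpha chain of CD8 and is also known from some dendritic cells, was at 6.53 and 8.28 CPM in WT and 9.996 and 5.95 CPM in CCL5-/-. Here the highest library was CCL5-/- replicate 1.

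Of the NK receptor genes, Klrd1 (chromosome 6, 129591782 to 129598775, plus strand) encodes CD94, the partner chain of the NKG2 receptors. It had 16 and 586 reads in WT and 51 and 282 in CCL5-/-. Its levels were 2.75 and 19.3 CPM in WT and 5.93 and 10.4 CPM in CCL5-/-, with both replicate 2 libraries above both replicate 1 libraries. Ncr1 (chromosome 7, 4337724 to 4345164, plus strand) encodes the activating receptor NKp46 and had 11 and 216 reads in WT and 17 and 105 in CCL5-/-. It was at 1.89 and 7.10 CPM in WT and at 1.98 and 3.86 CPM in CCL5-/-, and the replicate 1 libraries of the genotypes were almost equal.

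Of the granule genes, the granzymes Gzma and Gzmb had the highest CPM of the 10 in every library. Gzma (chromosome 13, 113093825 to 113100981, minus strand), a serine protease of the tryptase-like kind, had 202 and 5971 reads in WT and 556 and 1775 in CCL5-/-, or 34.7 and 196 CPM against 64.6 and 65.2 CPM. Gzmb (chromosome 14, 56258838 to 56262260, minus strand), which cleaves caspases in the target cell, had 200 and 3589 reads in WT and 537 and 1688 in CCL5-/-, or 34.4 and 118 CPM against 62.4 and 62.0 CPM. With TMM scaling (factors 0.821 and 1.43 for CCL5-/- replicates 1 and 2) the CCL5-/- libraries differed little from each other for both granzymes. They lay between the WT libraries. Over total counts the CCL5-/- libraries were further apart. Prf1 (chromosome 10, 61297833 to 61304680, plus strand), the pore-forming perforin, was at 14.3 and 20.3 CPM in WT and 23.7 and 14.2 CPM in CCL5-/-. Nkg7 (chromosome 7, 43437073 to 43438249, plus strand), a membrane protein of cytotoxic granules, was at 9.45 and 20.8 CPM in WT and 13.5 and 11.6 CPM in CCL5-/-. Prf1 was highest in CCL5-/- replicate 1, and Nkg7 in WT replicate 2.

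The cytokine gene Ifng (chromosome 10, 118441046 to 118445892, plus strand) had 10 and 325 reads in WT and 16 and 114 in CCL5-/-, the fewest of the 10 in both replicate 1 libraries. Its level was 1.72 and 10.7 CPM in WT and 1.86 and 4.19 CPM in CCL5-/-. As with Klrd1 and Ncr1, both replicate 2 libraries were above both replicate 1 libraries.

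To compare genes with each other, CPM was divided by the length in kilobases of the merged GENCODE M21 exons (RPKM). Averaged over the 4 libraries, this level was 89.7 ± 71.7 for Gzma and 48.2 ± 24.4 for Gzmb (mean ± SD, n = 4). It was 15.1 ± 5.38 for Nkg7, 7.47 ± 5.60 for Klrd1 and 7.02 ± 1.82 for Prf1. Next came Ifng at 3.56 ± 3.25, Cd3g at 3.26 ± 2.77, Ncr1 at 2.41 ± 1.58, Cd8a at 2.11 ± 0.503 and Cd3e at 0.826 ± 0.168. Neighbours in this order overlapped over the 4 libraries, except Gzmb with Nkg7 and Cd8a with Cd3e. Merged exons are longer than the transcript in use where a gene has several forms, which lowers this level.

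The first comparison asked whether the 10 genes depend on genotype in F4/80low TAMs. None of the 10 passed edgeR's quasi-likelihood test (adjusted p under 0.05), against 0% of the 12710 genes tested, of which 41 had an unadjusted p under 0.05. Ccl5 itself, at -4.64 (SE 0.69), did not pass this test either (adjusted p = 0.99997). This edgeR test could thus not call even the gene that CCL5-/- mice lack. A member that did not pass is therefore not shown to be unchanged. In DESeq2 Ccl5 did pass (adjusted p = 2.4e-08), as the only gene called, but in limma-voom it did not (adjusted p = 0.99996). None of the 10 had an unadjusted p under 0.05 in edgeR, DESeq2 or limma-voom without a replicate term. With the replicate number as a term in edgeR, 0 of the 10 passed, against 0.0787% of genes (10 of 12710, all lower in CCL5-/-). Ccl5 did not pass there either (adjusted p = 0.099). It passed with this term in DESeq2 (adjusted p = 1.3e-22) and limma-voom (adjusted p = 7.8e-07), fits added after the data were seen. In edgeR 8 log2 changes were below 0 and 2 above, with a median of -0.38 against -0.01 over all genes. The lowest were -1.10 (SE 0.76) for Cd3g, -1.05 (SE 0.91) for Ifng and -0.83 (SE 0.80) for Gzma. Ncr1 had -0.64 (SE 0.75), Klrd1 -0.46 (SE 0.88), Gzmb -0.30 (SE 0.63), Nkg7 -0.28 (SE 0.48) and Cd3e -0.18 (SE 0.51). Prf1 had 0.12 (SE 0.43) and Cd8a 0.09 (SE 0.45). The genotype groups overlapped for all 10 members, whereas they did not overlap for 16.6% of tested genes. The sign of each change turned with at least 1 library left out. Without WT replicate 2 all 10 changes were above 0 (0.03 to 1.57), and 8 of these had turned. All 10 were below 0 without WT replicate 1 (-1.79 to -0.05) and without CCL5-/- replicate 1 (-0.88 to -0.08), where Cd8a and Prf1 were the 2 that turned. The authors' deposited table also gives an adjusted p of 0.9999 for each member, with log2 changes from -0.36 for Cd3g to 0.06 for Prf1. Its changes are on a smaller scale, with -1.68 for Ccl5 (adjusted p = 2.6e-05 in that table) where edgeR gave -4.64. Their sizes are therefore not comparable with those above.

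The pairs gave opposite answers. Within replicate 1 all 10 genes had a higher level in CCL5-/- than in WT, and within replicate 2 all 10 had a lower level. Over 12579 tested genes with reads in every library, 50.5% were higher in pair 1, 52.2% were lower in pair 2 and 25.6% had both, while 22.9% had the reverse combination, which no member had. The median log2 change of the 10 was 0.56 in pair 1 and -0.89 in pair 2, against 0.0048 and -0.023 over those genes. With 1 library on each side there is no test of either pair, and a test of their difference has no residual degrees of freedom in 4 libraries. The 95% intervals below (exact binomial, conditional on the reads of both libraries) cover counting error only.

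**Figure D2:**
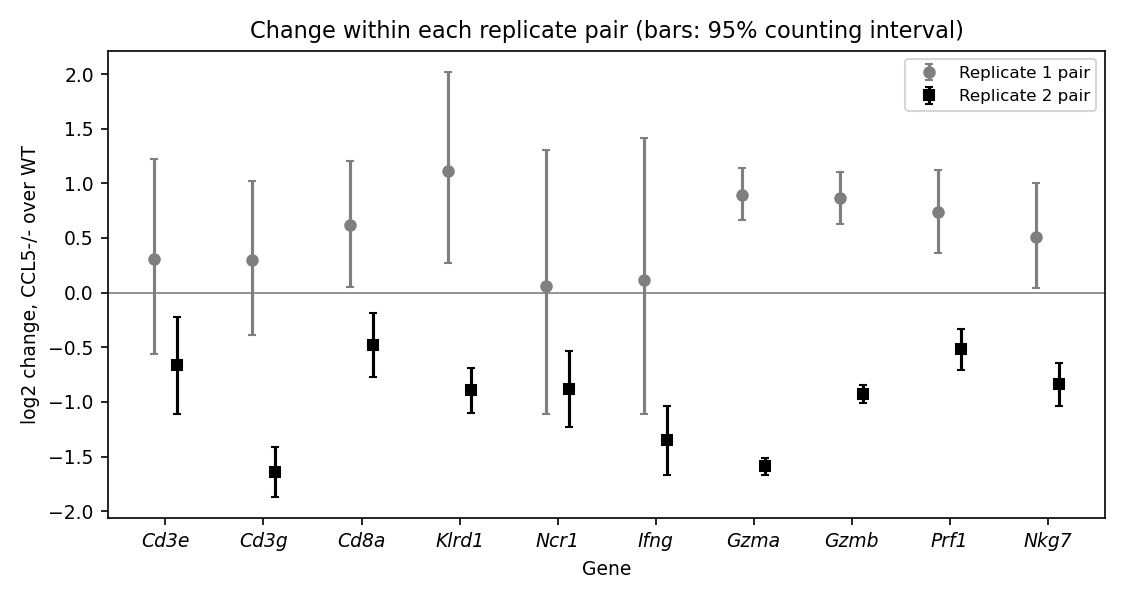
The log2 change of each gene, CCL5-/- over WT, within the replicate 1 pair (grey circles) and the replicate 2 pair (black squares), with exact 95% counting intervals. All 10 grey points lie above 0 and all 10 black points below it, and for 6 genes neither interval includes 0.

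In pair 1 the largest log2 change was 1.11 for Klrd1 (0.28 to 2.02), the only member past 2-fold there, against 3.89% of genes (5.02% were past 2-fold lower, with 0 members). Gzma had 0.90 (0.66 to 1.137), Gzmb 0.86 (0.62 to 1.10) and Prf1 0.73 (0.36 to 1.12). Cd8a had 0.61 (0.05 to 1.21) and Nkg7 0.51 (0.04 to 1.003). For the other members, the counting interval included 0: Cd3e had 0.31 (-0.56 to 1.23), Cd3g 0.30 (-0.39 to 1.02), Ifng 0.11 (-1.11 to 1.42) and Ncr1 0.06 (-1.11 to 1.30). These 4 genes had between 26 and 79 reads in the 2 libraries together.

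In pair 2 all 10 counting intervals lay below 0. Cd3g had -1.64 (-1.87 to -1.42), Gzma -1.59 (-1.67 to -1.51) and Ifng -1.35 (-1.67 to -1.04). These 3 were past 2-fold lower, against 5.72% of genes (1.35% were past 2-fold higher, with 0 members). Gzmb had -0.93 (-1.01 to -0.84), Klrd1 -0.90 (-1.11 to -0.69), Ncr1 -0.88 (-1.23 to -0.54) and Nkg7 -0.84 (-1.04 to -0.64). The smallest changes were those of Cd3e at -0.66 (-1.11 to -0.22), Prf1 at -0.52 (-0.70 to -0.33) and Cd8a at -0.48 (-0.77 to -0.19). The change in pair 2 was at least 2-fold below that in pair 1 for 8 of the 10, all but Cd3e and Ncr1, against 9.03% of genes.

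Scaling moved the level of pair 1 but not these signs. With total counts in place of TMM the median of all genes in pair 1 was 0.39 and 80.8% of genes had a higher value in CCL5-/-, against 50.5% with TMM, and the median of the 10 genes was 0.95. With counts outside Rn45s these medians were 0.13 and 0.68. All 10 members were above 0 in pair 1 and below 0 in pair 2 under TMM, total counts, counts outside Rn45s and DESeq2 size factors. Over all genes, 25.6%, 35.0%, 26.3% and 25.2% had this combination, in the same order. Total counts and counts outside Rn45s raised the changes in both pairs, so under them only the pair 2 signs could have turned.

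The next comparison asked whether the genes differ between the replicate numbers, with genotype as a term in edgeR. Of the 10, Ifng (log2 change 1.87, SE 0.44, adjusted p = 0.0051), Klrd1 (1.67, SE 0.44, adjusted p = 0.018) and Ncr1 (1.41, SE 0.44, adjusted p = 0.023) were higher in replicate 2. This is 3 of 10 members, where 31.8% of tested genes passed, 13.9% higher in replicate 2 and 18.0% lower. Cd3g had 1.32 (SE 0.44, adjusted p = 0.051), Gzma 1.23 (SE 0.88), Gzmb 0.87 (SE 0.45) and Nkg7 0.43 (SE 0.32), which did not pass. Cd3e (-0.13), Prf1 (-0.14) and Cd8a (-0.23) had values near 0. The fits with 1 library left out had no genotype term. With all libraries and no such term the same 3 members passed, against 29.6% of genes. The count changed when single libraries were left out. Without WT replicate 2, 0 of the 10 passed (1 had an unadjusted p under 0.05), where 25.4% of all genes passed, and without CCL5-/- replicate 2, 6 passed, against 23.5%. Ncr1 did not pass in DESeq2 (adjusted p = 0.0999), nor in edgeR without WT replicate 1 (adjusted p = 0.082) or without CCL5-/- replicate 1 (adjusted p = 0.088). Ifng did not pass in edgeR without CCL5-/- replicate 1 (adjusted p = 0.052). Of the fits run, Klrd1 failed only without WT replicate 2 (adjusted p = 0.061).

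Ratios between genes of 1 library do not depend on scaling, and 6 of them, chosen after their values were seen, are given here with exact 95% counting intervals. Reads of Gzma and Gzmb were nearly equal in 3 libraries, with ratios of 1.01 (0.83 to 1.23) in WT replicate 1, 1.04 (0.92 to 1.17) in CCL5-/- replicate 1 and 1.05 (0.98 to 1.12) in CCL5-/- replicate 2. In WT replicate 2 the ratio was 1.66 (1.60 to 1.73). By these reads that library differed from the other 3 in the mix of the granzymes as well as in their level. It is 1 library and the ratio was chosen after its values were seen, so this is a description only. Whether some reads of Gzmb belong to related granzyme genes on chromosome 14 was not checked.

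The other 5 ratios were picked because they differed by replicate number, so they describe these libraries and are no evidence for such a difference. Reads of Cd3g to Cd3e had a ratio of 1.56 and 1.55 in replicate 1 of WT and CCL5-/-, and of 6.02 and 3.06 in replicate 2. The ratio of Klrd1 to Cd8a was 0.421 (0.22 to 0.77) and 0.593 (0.41 to 0.85) in replicate 1, and 2.33 (2.00 to 2.71) and 1.74 (1.43 to 2.13) in replicate 2. Ncr1 to Cd3e gave 0.611 and 0.515 in replicate 1, and 1.77 and 1.52 in replicate 2. Ifng to Prf1 gave 0.12 and 0.078 in replicate 1 and 0.525 and 0.295 in replicate 2. Prf1 to Gzmb went the other way, with 0.415 and 0.38 in replicate 1 and 0.172 and 0.229 in replicate 2. The counting intervals of replicate 1 and replicate 2 libraries did not overlap for Klrd1 to Cd8a, Ifng to Prf1 and Prf1 to Gzmb. They overlapped for Ncr1 to Cd3e (0.26 to 1.37 in WT replicate 1 against 1.11 to 2.09 in CCL5-/- replicate 2). They also overlapped for Cd3g to Cd3e (0.83 to 2.99 in WT replicate 1 and 0.98 to 2.47 in CCL5-/- replicate 1, against 2.32 to 4.07 in CCL5-/- replicate 2).

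**Figure D3:**
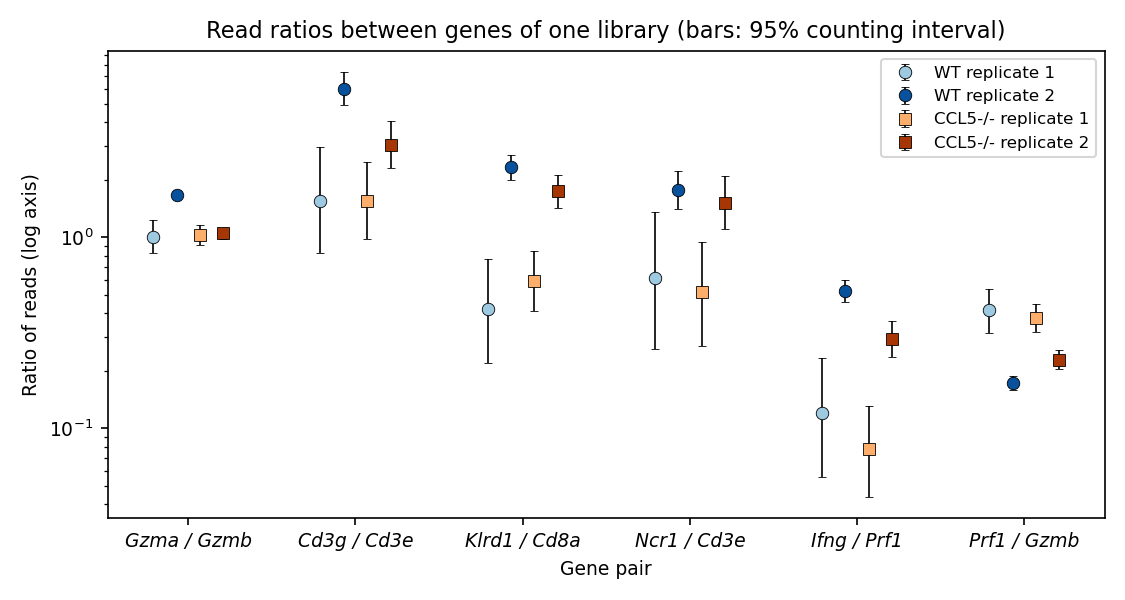
Ratio of reads between the named genes within each F4/80low library, on a log axis, with exact 95% counting intervals and the same symbols as in the plot of levels. Gzma to Gzmb is higher in WT replicate 2 (1.66) than in the other 3 libraries (1.01 to 1.05), while the other 5, picked for differing by replicate number, include 2 (Cd3g to Cd3e and Ncr1 to Cd3e) whose intervals overlap between replicate numbers.

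The promoters of 4 of these genes are shown because they are the granzymes whose ratio differed in WT replicate 2 and 2 genes (Nkg7, Ncr1) usually read with them. They are the 250 bases before the transcription start in RefSeq (GRCm38.p6), 5′ to 3′ on the strand of the gene. These starts can differ from the GENCODE loci given above. The Nkg7 stretch runs past its GENCODE start (43437073), and its ETS and T-box letters lie inside that gene model. For Gzmb, Prf1 and Cd3e, bases shortly after the RefSeq start were not found as written in a GENCODE transcript. Ncr1 has 2 RefSeq starts, and only the first listed was used. Of the 10 members, 9 matched the promoter table, all but Klrd1. Capitals mark 3 motifs searched on both strands: RUNX (TGTGGT), T-box (GGTGTGA) and ETS (AGGAAG), core letters bound by families of lymphocyte regulators.
Gzma, chr13:113100982-113101231, minus strand: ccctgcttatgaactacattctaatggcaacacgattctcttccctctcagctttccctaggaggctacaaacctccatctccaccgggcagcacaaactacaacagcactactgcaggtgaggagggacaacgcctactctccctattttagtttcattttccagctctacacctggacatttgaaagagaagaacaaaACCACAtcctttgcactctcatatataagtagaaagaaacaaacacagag
Gzmb, chr14:56262335-56262584, minus strand: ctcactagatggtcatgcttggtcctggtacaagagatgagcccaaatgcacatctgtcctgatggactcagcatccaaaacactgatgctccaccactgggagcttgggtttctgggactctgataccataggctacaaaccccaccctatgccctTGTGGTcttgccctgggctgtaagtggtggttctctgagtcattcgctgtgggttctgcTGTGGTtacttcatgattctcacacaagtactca
Nkg7, chr7:43436888-43437137, plus strand: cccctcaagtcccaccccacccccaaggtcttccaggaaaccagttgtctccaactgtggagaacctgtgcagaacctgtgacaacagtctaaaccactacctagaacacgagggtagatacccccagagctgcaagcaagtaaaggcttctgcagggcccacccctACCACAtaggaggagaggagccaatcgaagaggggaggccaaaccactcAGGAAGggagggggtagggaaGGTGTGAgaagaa
Ncr1, chr7:4337465-4337714, plus strand: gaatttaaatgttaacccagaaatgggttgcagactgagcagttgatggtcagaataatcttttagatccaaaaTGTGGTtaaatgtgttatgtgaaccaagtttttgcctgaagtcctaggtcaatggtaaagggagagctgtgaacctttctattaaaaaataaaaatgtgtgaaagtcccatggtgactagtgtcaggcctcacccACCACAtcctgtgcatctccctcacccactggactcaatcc
RUNX letters were in 5 of the 9 promoters (Gzma, Gzmb, Nkg7, Ncr1 and Prf1), against 14.2% of 27025 promoters of the same length. T-box letters were in 1 of 9 (Nkg7), against 3.31%, and ETS letters in 3 of 9 (Nkg7, Cd3e and Prf1), against 29.2%. The motifs do not overlap one another in the sequences shown, and a match is a description of letters only.

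Other genes of the same cells were read from lists. Of 25 further NK receptor and regulator genes, 17 had enough reads to be tested, and 0 passed for genotype in edgeR (median log2 change -0.62). All 17 had a higher level in CCL5-/- in pair 1 and a lower level in pair 2, with medians of 0.73 and -1.08. Xcl1, a lymphocyte chemokine, was at 3.61 and 44.0 CPM in WT and 5.81 and 11.9 CPM in CCL5-/-. The activating receptor gene Klrk1 (NKG2D) was at 9.28 and 40.2 CPM in WT and 13.5 and 14.1 CPM in CCL5-/-. Klrc1, the NKG2A partner of CD94, was at 2.92 and 21.0 CPM against 8.37 and 11.2 CPM. Il2rb, a receptor chain for interleukins 2 and 15, was at 35.4 and 68.3 CPM against 52.8 and 34.0 CPM. Each was highest in WT replicate 2 and lowest in WT replicate 1, except that Il2rb was lowest in CCL5-/- replicate 2. For replicate number 4 of the 17 passed, Klra3, Klra7, Klri2 and Klrg1, all higher in replicate 2. Counts by replicate number in this and the other lists stand beside 13.9% of all genes higher and 18.0% lower. Klra4, Klra8 and Klra9 had 0 reads in all 4 libraries, which allows up to 3 reads each in a library, and the content of this receptor family is known to differ between inbred strains.

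Of 25 further T cell genes, 22 were in the count table and 21 were tested (Trac, Trbc1 and Trbc2 were not analysed here), and 0 passed for genotype or for replicate number in edgeR. For genotype the median was -0.29. In pair 1, 13 of 21 had a higher level in CCL5-/- and in pair 2, 18 of 21 had a lower one. Lck, the kinase that starts T cell receptor signalling, was at 7.56 and 17.3 CPM in WT and 12.4 and 9.99 CPM in CCL5-/-. The costimulator gene Icos was at 6.01 and 11.6 CPM against 7.32 and 7.20 CPM. The pattern was less even here than among NK genes: Thy1, a surface protein also made by stromal cells, had -0.02 in pair 1 and -0.27 in pair 2. Whether T and NK genes differ in this was not tested.

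Among regulatory and exhaustion genes, 12 of 12 were tested and 0 passed for genotype. For replicate number, the checkpoint receptor gene Lag3 (log2 change 1.18) and Tnfrsf18 (1.69) were higher in replicate 2, and the regulatory T cell factors Foxp3 (-2.12, adjusted p = 0.044) and Ikzf2 (-1.36, adjusted p = 0.049) were lower. Foxp3 rested on 10 and 8 reads in WT and 13 and 13 reads in CCL5-/-.

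Genes of the granule and its release were less uniform. Of 19 tested genes, 0 passed for genotype in edgeR, 10 were above 0 in pair 1 and 14 below 0 in pair 2. The granzyme B cluster on chromosome 14 holds related granzyme genes whose reads may not be separable from one another. These are named after their values were seen. Gzmc was at 26.1 and 39.1 CPM in WT and 33.8 and 21.7 CPM in CCL5-/-. Gzmd, at 33.2 and 20.4 CPM against 24.2 and 21.2 CPM, Gzmf, at 31.6 and 19.0 CPM against 32.0 and 24.9 CPM, and Gzmg, at 33.8 and 17.1 CPM against 25.3 and 18.3 CPM, were lowest in WT replicate 2, where Gzmb was highest. Gzme, at 11.9 and 7.10 CPM against 7.79 and 6.35 CPM, was lowest in CCL5-/- replicate 2. Srgn, the proteoglycan core of granules in many blood cells, was at 1249 and 805 CPM in WT and 880 and 417 CPM in CCL5-/-. Serpinb9, an inhibitor of granzyme B also made by myeloid cells, was at 23.5 and 119 CPM against 42.8 and 59.0 CPM, in the same order of libraries as Klrd1. For replicate number Srgn (-0.86), Gzmg (-0.73), Rab27a (-1.77) and Lyst (-4.07) were lower in replicate 2, and no gene of this list was higher.

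The interferon gamma pathway was read in 2 lists. Of 17 genes for the receptor, its signalling and the cytokines that induce Ifng, 0 passed for genotype in edgeR, 9 were above 0 in pair 1 and 15 below 0 in pair 2. The receptor gene Ifngr2 was at 51.0 and 75.0 CPM in WT and 44.6 and 69.3 CPM in CCL5-/-. Irf1, a transcription factor induced by interferon gamma, was at 77.6 and 169 CPM against 138 and 138 CPM. For replicate number Ifngr2 (0.60), Il15 (0.98) and the feedback inhibitor gene Socs1 (1.08) were higher in replicate 2. Of 21 interferon gamma target genes, 0 passed for genotype, 19 were above 0 in pair 1 and 20 below 0 in pair 2. The chemokine gene Cxcl9 had the widest range, with 17 and 7503 reads in WT and 369 and 3165 in CCL5-/-, or 2.92 and 247 CPM against 42.9 and 116 CPM. The guanylate-binding protein gene Gbp2 was at 35.4 and 121 CPM in WT and 67.4 and 108 CPM in CCL5-/-. For replicate number Gbp2, Cxcl11, Psmb8, Psmb9 and Tap1 were higher in replicate 2 and Nlrc5 was lower.

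Markers of other cells were read beside these values, and their part in the results was not tested. Neutrophil markers (13 of 14 in the table, 11 tested) summed to 3786 and 600 CPM in WT and 776 and 347 CPM in CCL5-/-, highest in WT replicate 1, where most of the 10 lymphocyte genes were lowest. Elane and Mpo were at 0 in at least 1 library. Macrophage markers were above 0 in pair 1 for 9 of 15 genes and below 0 in pair 2 for 13. Lyz2, the lysozyme gene of myeloid cells, was at 2115 and 5351 CPM in WT and 3159 and 3033 CPM in CCL5-/-, with 0.58 in pair 1 and -0.82 in pair 2. Adgre1, whose product is one of the antigens of the sort, had 0.59 and -0.55. Opposite signs in the pairs were thus also found in genes that mark macrophages. B and plasma cell markers (10 of 12 in the table, 4 tested) summed to 7.39 and 91.6 CPM in WT and 10.2 and 18.7 CPM in CCL5-/-, with Ms4a1, Cd79a and Pax5 among those at 0 in at least 1 library. Most of that sum was Jchain, at 4.64 and 86.4 CPM in WT and 6.86 and 15.9 CPM in CCL5-/-. Mast cell and basophil markers, cells in which granzyme B has been described, summed to 307 and 89.1 CPM in WT and 106 and 94.2 CPM in CCL5-/-, with Mcpt8 and Prss34 at 0 in at least 1 library. Of that sum Hdc alone gave 249.4 and 34.5 CPM in WT and 67.4 and 22.0 CPM in CCL5-/-. The mast cell protease genes were in another order, with Mcpt4 at 8.42 and 8.97 CPM against 6.51 and 12.6 CPM and Cpa3 at 7.39 and 10.2 CPM against 5.11 and 12.7 CPM. Plasmacytoid dendritic cell markers summed to 199 and 366 CPM against 184 and 248 CPM. Most of that sum was Bst2, at 119 and 278 CPM against 124 and 180 CPM, and Tcf4, at 73.2 and 79.3 CPM against 55.2 and 60.0 CPM. Siglech of the same list was at 0.515 and 0.756 CPM against 0.814 and 0.734 CPM.

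**Figure D4:**
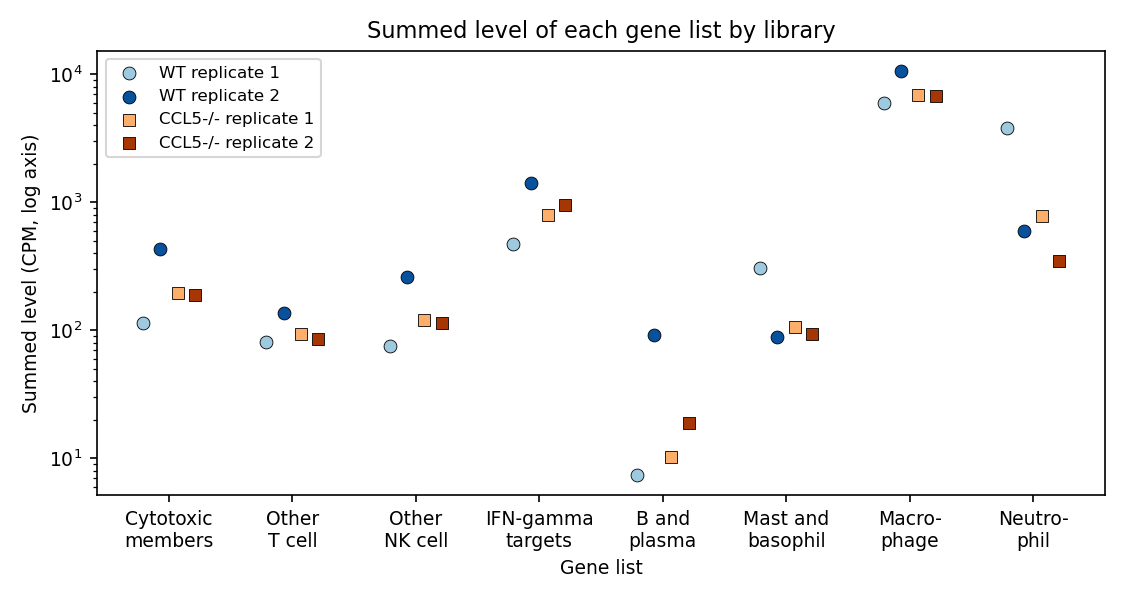
Summed level of 8 gene lists in each F4/80low library, in CPM on a log axis, with the same symbols as in the plot of single genes. All lists but the neutrophil and the mast cell and basophil markers are lowest in WT replicate 1 and highest in WT replicate 2. The neutrophil markers (3786 CPM) and the mast cell and basophil markers (307 CPM) are highest in WT replicate 1.

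The profile of the 10 genes over the 4 libraries (the mean of their centred log2 levels) was -0.66 and 0.87 in WT replicates 1 and 2 and -0.14 and -0.06 in CCL5-/-. By Euclidean distance over these 4 values, the nearest of the other tested genes were BC094916 (0.058), Klrc3 (0.062), Zfp617 (0.099), Tnip3 (0.12) and Slamf9 (0.12). Klrc3 is a CD94 partner gene of the NKG2 family with 0.344 and 2.01 CPM in WT and 0.697 and 0.734 CPM in CCL5-/-. Tnip3 was at 18.0 and 56.5 CPM in WT and 29.2 and 30.0 CPM in CCL5-/-. The members themselves lay between 0.25 (Gzmb) and 1.05 (Cd8a) from their mean, so the nearest genes were closer to it than any member was.

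The second comparison was between the CD11blow libraries, 1 per label, so it has no replicate check. All 10 genes had a lower FPKM in the library labelled CCL5-/-, and 1 of 10, Klrd1, was at least 2-fold lower on the log2(FPKM + 1) scale, against 1.58% of 11670 genes (2.35% were at least 2-fold higher, with 0 members). Gzma was at 119 FPKM in the library labelled WT and 62.5 FPKM in the one labelled CCL5-/-, and Gzmb at 65.4 and 37.9 FPKM. Nkg7 was at 32.5 and 20.8 FPKM, Prf1 at 11.98 and 9.67 FPKM and Klrd1 at 11.0 and 3.53 FPKM. The authors' lower and upper bounds overlapped for all 10 genes, for Gzma at 47.4 to 191 FPKM and 23.5 to 102 FPKM.

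The T cell and remaining genes had low FPKM values. Cd3g was at 8.44 FPKM in the library labelled WT and 7.06 FPKM in the one labelled CCL5-/-, Cd8a at 4.58 and 2.86 FPKM and Cd3e at 3.47 and 2.52 FPKM. Ifng was at 3.06 and 2.01 FPKM and Ncr1 at 1.94 and 1.11 FPKM. The median log2 change of the 10, library labelled CCL5-/- over library labelled WT, was -0.51, against -0.02 over all genes, a scale that understates changes of low genes. For Ccl5 these libraries had 15.7 FPKM (labelled WT) and 145 FPKM (labelled CCL5-/-). Under the titles each of these changes has the opposite sign, and that sign is the one of the replicate 1 pair.

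The FPKM ratios repeated the replicate 1 reads. From the FPKM ratio, 558 of the 758 Gzma reads of that pair would fall in CCL5-/- replicate 1, where 556 were counted, and 50.2 of the 79 Cd3g reads, where 51 were counted. Of the 10 genes, 7 had a chi-square under 1 and the median was 0.403. Prf1 had the highest, 5.55, with 204 reads counted and 185 given by the ratio. These values were therefore not treated as a second measurement in another gate, and which gate the 2 libraries came from was not tested.

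**Figure D5:**
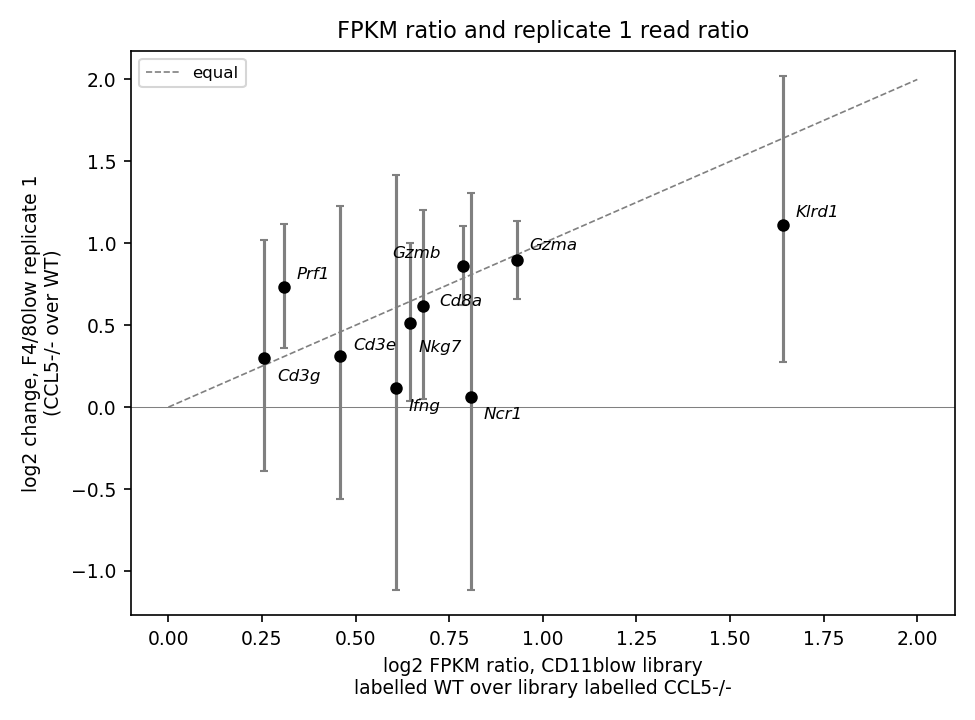
The log2 FPKM ratio of the CD11blow libraries (horizontal axis, labelled WT over labelled CCL5-/-) against the log2 change of the F4/80low replicate 1 pair (vertical axis, CCL5-/- over WT, with exact 95% counting intervals) for the 10 genes, with a dashed line of equality. The line passes through the interval of every gene but Prf1.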

How the data were processed

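The protocols in the labels name Trizol for RNA and a TruSeq RNA LT V2 kit for the libraries. The submitters' processing notes list STAR, HTSeq, DESeq2, TopHat2 2.1.1 and Cufflinks 2.2.1 among their tools, with human and mouse builds. No source used here says which tool made which table, or whether counting used strand, so overlapping or antisense genes cannot be told apart. The deposited table for the 4 F4/80low libraries holds raw read counts. A table deposited by the authors holds their normalised signal (counts divided by 1 factor per library), log2 fold change, p-value and a test score. The CD11blow table holds FPKM values with bounds from the authors, and their depth is unknown. There, 99.03% of 20876 loci overlapped the same symbol in GENCODE M21, so GRCm38 coordinates are given.

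Counts were filtered (filterByExpr), scaled (TMM) and tested two-sided with edgeR 4.0.16 in R 4.3.3 (robust quasi-likelihood, Benjamini-Hochberg over 12710 genes at 0.05). The standard error is the size of the log2 change divided by the square root of F. DESeq2 1.42.0 and limma-voom (limma 3.58.1) were alternatives. FPKM changes used a pseudocount of 1 over genes with at least 1 FPKM in either library, and profiles a pseudocount of 0.5 CPM. The chi-square set reads of each gene (20 to 400 in both libraries) against the split given by the FPKM ratio, and for the members all read numbers were used. Groups follow the characteristics fields. The members and lists were chosen with earlier results of these data known. Named genes were the members, the 4 list genes of highest mean CPM, list genes that passed a test and the 5 nearest profiles. Others named were chosen after their values were seen. Some list genes are not reported here by name.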

Additional observations from a re-analysis of the deposited data

Results flagged for a closer look

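For all 10 genes the change from WT to CCL5-/- had opposite signs in the replicate 1 and replicate 2 pairs. This difference was not tested, since 4 libraries leave no residual degrees of freedom for it. On the log2 scale, the change in pair 2 minus that in pair 1 was -2.49 for Gzma, -2.004 for Klrd1, -1.94 for Cd3g, -1.79 for Gzmb and -1.47 for Ifng. It was -1.35 for Nkg7, -1.25 for Prf1, -1.09 for Cd8a, -0.97 for Cd3e and -0.95 for Ncr1. A 95% interval for counting error alone (normal approximation on the log scale) left out 0 for 9 of the 10, all but Ncr1 (-2.09 to 0.20).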

How the results depend on the processing

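No member passed for genotype under any fit run, which covers edgeR, DESeq2 and limma-voom, no filter on low counts, Rn45s left out, the replicate block and each library left out. The count of all genes that passed for genotype was 0 in edgeR, 1 in DESeq2 and between 0 and 4 with 1 library left out. With a replicate block it was 10 in edgeR and, in fits added after seeing the data, 23 in DESeq2 and 47 in limma-voom. With the block the lowest adjusted p of a member was 0.863 in edgeR and 0.122 in limma-voom, where Cd3g, Ifng and Ncr1 had an unadjusted p under 0.05. The labels give the replicate numbers but do not say that they pair the libraries, and with 2 numbers the data cannot settle it (across genes, the deviations of the WT and CCL5-/- replicate 1 libraries from their group means had r = 0.75).

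Signs of the genotype change turned mainly with single libraries. With 1 library left out it ranged from -0.45 to 0.098 for Cd3e, -1.79 to 0.51 for Cd3g, -0.28 to 0.42 for Cd8a, -1.58 to 0.90 for Gzma and -0.91 to 0.86 for Gzmb. It ranged from -0.25 to 0.45 for Prf1, -0.72 to 0.41 for Nkg7, -1.21 to 1.57 for Klrd1, -1.24 to 0.64 for Ncr1 and -1.78 to 0.83 for Ifng. The upper ends of Cd3g, Gzma, Gzmb, Nkg7, Klrd1, Ncr1 and Ifng came without WT replicate 2. Cd8a turned to -0.052 in limma-voom, -0.00019 with the replicate block in edgeR and -0.17 with it in limma-voom. Prf1 turned to -0.065 with the replicate block in limma-voom, and Gzmb to 0.022 in limma-voom. No member was called with all 4 libraries in the fit, and the turns themselves were not tested.

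Between replicate numbers 4047 genes passed, and between 2067 and 3215 with 1 library left out. With 1 library left out, in fits that had no genotype term, the change ranged from -0.46 to 0.20 for Cd3e. It ranged from -0.49 to 0.16 for Cd8a and from -0.44 to 0.32 for Prf1. With no filter 5 members passed (25.7% of all genes), and with Rn45s left out 4 (33.0%). The summed level of the 10 genes in CCL5-/- was 213 CPM with total counts, 295 CPM with counts outside Rn45s and 128 CPM without Gzmb. With a pseudocount of 0.1 the CD11blow median change was -0.65. Depth limits Ifng, Ncr1, Cd3e and Klrd1 most, with 10 to 18 reads in WT replicate 1. Where causes are not named they were not tested.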
